A study of Homo sapiens with 6 samples.

Results

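The genes described here are those of the transforming growth factor beta (TGF-beta) and bone morphogenetic protein (BMP) pathways in A673 cells, an Ewing sarcoma cell line. A list of 47 genes was taken by symbol, out of 20503 genes named on the array: 11 ligands, 10 receptors, 8 SMAD genes, 5 antagonists, 4 latent TGF-beta binding proteins, 4 ubiquitin ligases or corepressors and 5 transcriptional targets. Each gene was followed through its probe with the highest mean signal. RNA was hybridised to 6 Agilent arrays in 1 colour (Cy3), 3 of A673/TR/empty cells, which serve as control, and 3 of A673/TR/LOX-PP cells given doxycycline over 72 h. Both carry the tetracycline repressor (TR) and a stably integrated inducible lentiviral construct. In the control the construct has no LOX cDNA, and in the other cells it holds the cDNA of the propeptide of lysyl oxidase (LOX-PP), so that the comparison asks what the propeptide changes in these cells. The treatment label (doxycycline, 1 uM) is repeated on all 6 samples while only the A673/TR/LOX-PP samples are named as stimulated, so whether the control cultures received doxycycline is not settled. The sources used here do not say whether the cells on the arrays were 1 clone or several, and the construct and the cell population that carries it cannot be told apart. The arrays are of bulk cultures, in which fewer cells of a type and less RNA per cell cannot be told apart.

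Ligands of this family are secreted as dimers and bring together type I and type II receptor kinases, which phosphorylate receptor SMADs: SMAD2 and SMAD3 after TGF-beta and activin, SMAD1, SMAD5 and SMAD9 after BMPs. These join SMAD4, enter the nucleus and act on target genes such as the ID genes, while SMAD6 and SMAD7, the SMURF ubiquitin ligases and the corepressors SKI and SKIL hold the signal back. TGF-beta is stored in the extracellular matrix in a latent complex with binding proteins of the LTBP family, and noggin, gremlin and follistatin trap BMPs or activins before they reach a receptor.

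The log2 signal of a probe is given throughout over the 75th percentile of its array, which only allows a probe to be compared with itself. The change of a gene is the mean of the LOX-PP arrays minus the mean of the control arrays, less the median of that difference over all 32647 tested probes (0.13), with the standard error (SE) of limma. Between 56.9% and 74.8% of spots were well above background per array, with no saturated gene spot. LOX-PP replicate 1 was alone on slide 2, with its own scan date, while the other 5 arrays shared slide 1. Before scaling, the log2 75th percentile was 12.90, 12.62 and 12.60 on the controls. It was 11.48, 12.61 and 11.70 on the LOX-PP arrays, and the part of this in the values of dim genes was not tested. The single LOX probe read 0.12 ± 0.22 (SD, n = 3) on the controls and -0.70 ± 0.58 (SD, n = 3) on the LOX-PP arrays. It was thus not higher where the propeptide was to be induced (adjusted p = 0.218), and where the probe lies with respect to the propeptide cDNA is not stated, so LOX-PP arrays means the arrays labelled A673/TR/LOX-PP, and all directions rest on the labels. All 9 Ewing sarcoma markers were well above background on all 6 arrays. Their summed linear signal ranged from 170.1 to 194.5 times the 75th percentile on the controls and from 194.3 to 231.1 on the LOX-PP arrays, and 1 of them, PAX7, fell (-2.05, adjusted p = 0.0121). Of 8 fibroblast markers 6 were so, and each was well above background on at least 1 array. The sum of the fibroblast list ranged from 83.4 to 85.0 times the 75th percentile on the controls and from 46.0 to 71.0 on the LOX-PP arrays, with COL1A2 (-3.04) and LUM (-2.42) past the threshold. Of the others, PDGFRA was not tested and 5 did not pass it, with changes from -1.49 for COL3A1 to 0.53 for COL1A1, which was higher on all LOX-PP arrays. Of the 7 epithelial markers 4 were well above background on all 6 arrays, and CDH1 and KRT5 on none, while KRT14 rose by 5.13. The summed signal of that list was 57.9 to 59.5 on the controls and 50.1 to 72.5 on the LOX-PP arrays. Such sums are compared only between arrays and rest mostly on the markers with the highest signal. In the epithelial list that was KRT18, at 5.83 on the controls with a change of -0.23. The 5 haematopoietic markers on the array summed to 0.547 to 0.727 and 0.553 to 1.15. The part of these cell type genes in the results below was not tested.

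Of the 47 genes, 42 were well above background on at least 3 arrays and were tested, 35 of them on all 6. The remaining 5 were INHBB, BMP2, BMP4, FST and LTBP2. At an adjusted p under 0.05, 6 of the 42 changed: BMP6 rose, and TGFBI, LTBP1, BMP5, BMPR2 and FSTL1 fell. These are 14.3% of the tested genes, against 7.05% of the 16593 named genes tested in the same way by their brightest probe. The 1 rise stands beside a background of 3.69%, and the 5 falls beside one of 3.35%. Without adjustment, 16 of the 42 had a p under 0.05 in limma. The share of all named genes at that unadjusted level was not computed. This count and those by role below therefore have no background to stand beside. The groups did not overlap for 19 of the 42 (45.2%), compared with 33.6% of all named genes. The median change of the 42 was -0.43, with a range from -3.58 to 1.03, while for all named genes the median was -0.09 and the quartiles were -0.46 and 0.30. Below the median of all probes lay 32 of the 42, a number that was 29 under quantile normalization and 33 with normexp background correction. It ran from 28 without LOX-PP replicate 2 to 35 without LOX-PP replicate 1. Among probes above background on all 6 arrays it was 24 of 35. The share of all named genes below the all-probe median was not computed, here or for the counts by role below. Their own median of -0.09 lies below it.

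**Figure D1:**
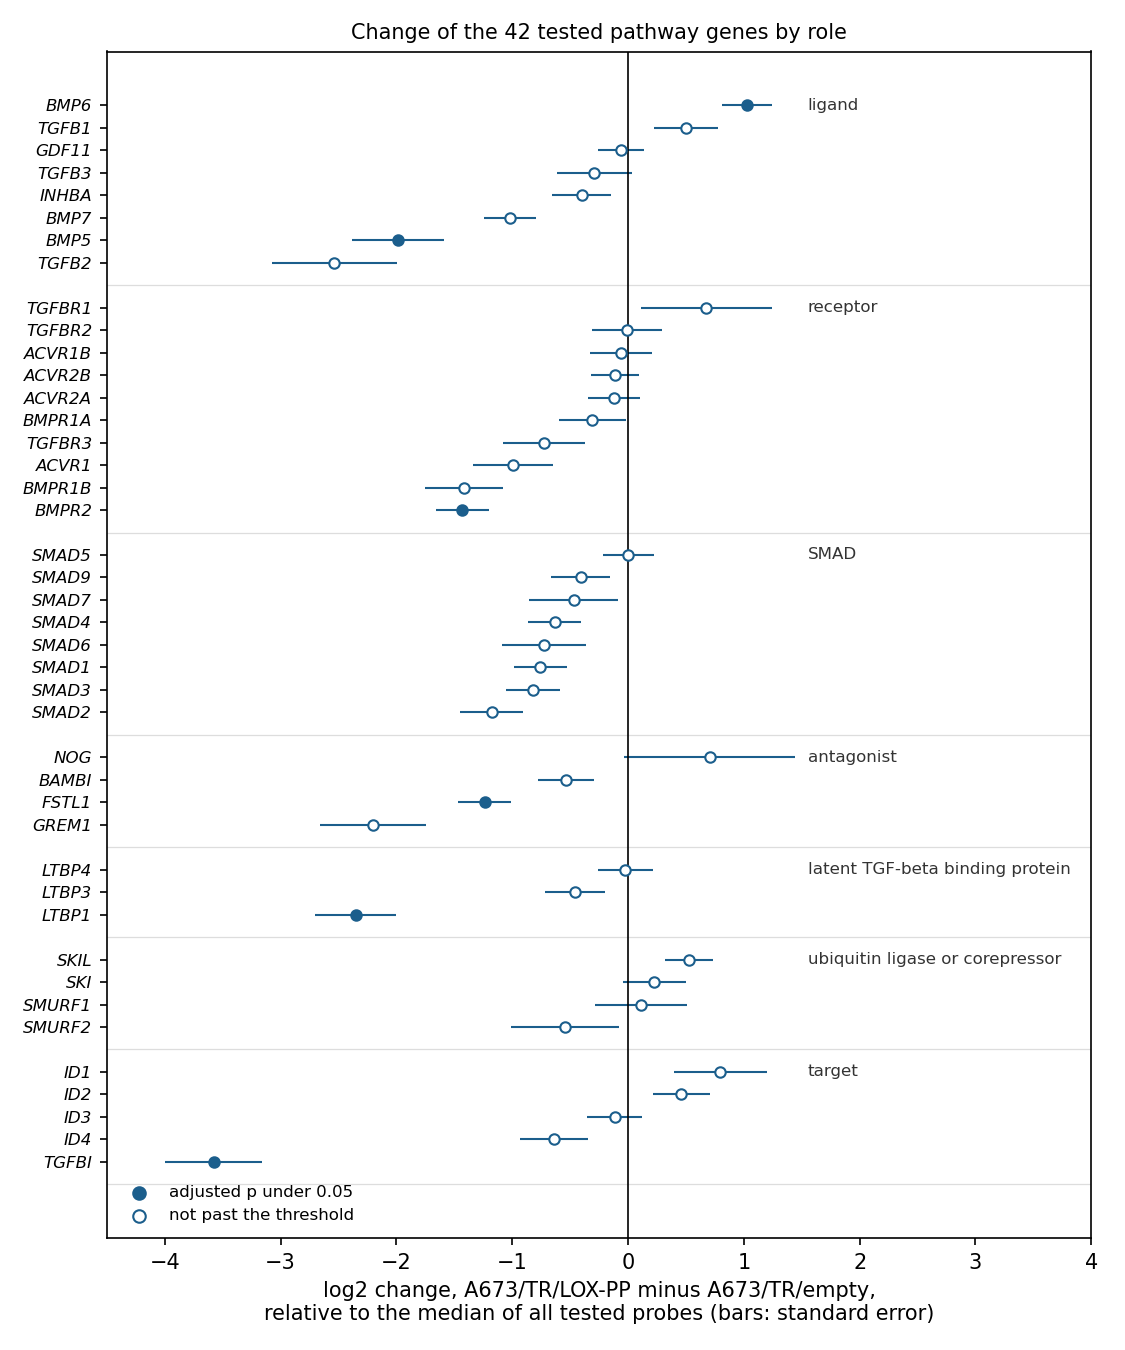
Change of the 42 tested genes, grouped by role, as the log2 difference between LOX-PP and control arrays relative to the median of all tested probes (x axis), with bars of 1 standard error. Filled points are the 6 genes past the threshold, of which only BMP6 lies to the right of 0. TGFBI lies farthest to the left at -3.58.

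Promoter windows are shown for 3 of the genes that changed, TGFBI with the largest fall, BMPR2 as the receptor that passed the threshold, and BMP6 as the gene that rose. Each holds 300 bases, from 250 before to 50 after the transcription start, in RefSeq GRCh38.p14. Capitals mark matches on either strand to GGCGCC and to CAGAC (read as GTCTG on the opposite strand), both known as sequences that SMAD proteins bind. The windows are chr5:136028738-136029037 for TGFBI, chr2:202376077-202376376 for BMPR2 and chr6:7725849-7726148 for BMP6, all on the plus strand.
TGFBI: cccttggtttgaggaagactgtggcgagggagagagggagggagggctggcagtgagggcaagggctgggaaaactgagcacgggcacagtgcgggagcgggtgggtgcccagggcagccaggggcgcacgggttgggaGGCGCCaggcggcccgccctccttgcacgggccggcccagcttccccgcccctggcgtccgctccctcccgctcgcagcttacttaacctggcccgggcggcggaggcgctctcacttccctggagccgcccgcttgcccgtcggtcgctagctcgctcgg
BMPR2: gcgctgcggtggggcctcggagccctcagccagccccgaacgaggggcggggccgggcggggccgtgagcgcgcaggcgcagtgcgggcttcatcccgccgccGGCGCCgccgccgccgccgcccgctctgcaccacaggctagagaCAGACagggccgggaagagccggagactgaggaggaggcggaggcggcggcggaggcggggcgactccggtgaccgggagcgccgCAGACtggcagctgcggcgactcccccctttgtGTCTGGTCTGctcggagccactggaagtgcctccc
BMP6: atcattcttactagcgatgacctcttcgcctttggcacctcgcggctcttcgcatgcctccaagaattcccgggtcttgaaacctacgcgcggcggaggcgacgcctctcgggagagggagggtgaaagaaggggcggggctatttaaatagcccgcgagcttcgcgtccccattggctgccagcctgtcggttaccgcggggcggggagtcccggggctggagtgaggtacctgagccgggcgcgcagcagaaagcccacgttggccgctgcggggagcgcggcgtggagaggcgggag
The TGFBI window has 1 match to GGCGCC and none to CAGAC. The BMPR2 window has 1 match to GGCGCC and 4 to CAGAC, 2 of them side by side near its end. No match to either was found in the BMP6 window. Of the 47 genes, 37 had a window. GGCGCC was found in 14 of these (37.8%) and in 18.6% of all 24885 windows, and CAGAC in 16 of these (43.2%) and in 45.3% of all windows. GGCGCC is made of G and C alone. The 14 windows that held it were 66.7% to 88.7% G and C, and the other windows of the list 37.3% to 81.7%. The G and C content of all windows was not computed, and its part in these shares was not tested. Among the 6 genes that changed, 3 windows held GGCGCC and 2 held CAGAC. These matches describe the letters of the windows, and binding was not measured.

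Among the ligands, BMP6 rose, BMP5 fell, and 6 others were tested without passing the threshold. BMP6, a BMP that signals through ACVR1 among other receptors, read -1.50, -1.55 and -1.52 on the controls and -0.60, -0.13 and -0.38 on the LOX-PP arrays. Every LOX-PP array thus lay above every control array, and the control arrays lay close together. The gene was 2.04-fold higher (change of 1.03, SE 0.22, 95% interval from 0.52 to 1.54, adjusted p = 0.0295). BMP5, a ligand of the same subgroup as BMP6 and BMP7, read -1.22, -1.28 and -2.12 on the controls and -3.52, -2.73 and -3.95 on the LOX-PP arrays, again without overlap but in the opposite direction. It was 3.97-fold lower (change of -1.99, SE 0.40, 95% interval from -2.93 to -1.05, adjusted p = 0.0445). The adjusted p of BMP6 was 0.162, 0.144 and 0.0812 without control replicate 1, 2 or 3, and 0.0815 and 0.0716 without LOX-PP replicate 2 or 3. For BMP5 it was 0.200 and 0.191 without control replicate 1 or 2, and 0.0780 and 0.104 without LOX-PP replicate 1 or 3.

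BMP7 read 3.19, 3.48 and 2.98 on the controls and 2.19, 2.30 and 2.49 on the LOX-PP arrays. The groups did not overlap, and the change was -1.02 (SE 0.23, adjusted p = 0.0754). Of the 2 other BMP7 probes, one passed the threshold (-1.51, adjusted p = 0.0390) and the other did not (-1.13, adjusted p = 0.161), so the result for this gene depends on the probe. TGFB2, 1 of the 3 TGF-beta isoforms, had the lowest value of the ligands, with a change of -2.53 (SE 0.54, adjusted p = 0.0520). It read -3.20, -2.57 and -4.22 on the controls and -5.47, -5.10 and -6.64 on the LOX-PP arrays, which do not overlap, but the probe was well above background on only 2 control arrays and 1 LOX-PP array. With normexp the change of TGFB2 was smaller (-1.41). TGFB1, the most widely expressed isoform, read 2.32, 1.67 and 2.27 on the controls and 2.97, 2.78 and 2.40 on the LOX-PP arrays. All 3 LOX-PP values were the higher ones (change of 0.50, SE 0.28, adjusted p = 0.252). TGFB3 (-0.29, SE 0.32), INHBA (-0.40, SE 0.25), which encodes the subunit of activin A, and GDF11 (-0.06, SE 0.20) overlapped between groups. For GDF11 the 95% interval was -0.53 to 0.40, and its sign turned under quantile normalization (0.22).

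The other 3 ligand genes were too dim to be tested. BMP2 was well above background on no array, BMP4 on 1 control array, and INHBB, which encodes the subunit of activin B, on 1 array of each group. INHBB read -5.92, -5.96 and -5.66 on the controls and -4.86, -4.28 and -4.55 on the LOX-PP arrays. These do not overlap, but most were not well above background.

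**Figure D2:**
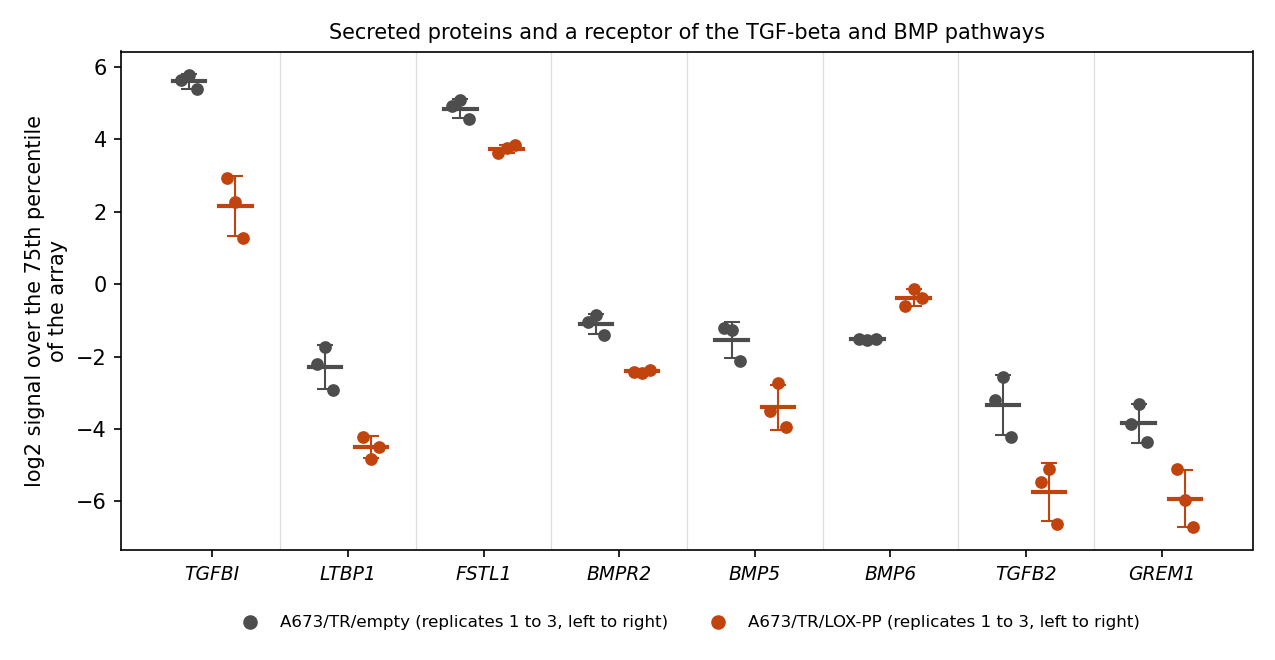
Log2 signal over the 75th percentile of the array (y axis) for the 6 genes past the threshold and for TGFB2 and GREM1, which came close to it. Points are arrays, with horizontal lines at the group mean and bars of 1 SD (n = 3). In all 8 genes the groups are apart, and only BMP6 is higher on the LOX-PP arrays.

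Of the 10 receptor genes, all tested, 1 changed. BMPR2, the type II receptor for BMPs, read -1.05, -0.86 and -1.41 on the controls and -2.42, -2.45 and -2.36 on the LOX-PP arrays. The LOX-PP arrays lay close together and below every control array. The gene was 2.69-fold lower (change of -1.43, SE 0.23, 95% interval from -1.97 to -0.89, adjusted p = 0.0238). The adjusted p was 0.147 and 0.126 without control replicate 1 or 2, and 0.0710 and 0.0610 without LOX-PP replicate 2 or 3. BMPR1B, a type I receptor for BMPs and growth differentiation factors, read -4.14, -3.90 and -4.81 on the controls and -5.10, -5.81 and -5.81 on the LOX-PP arrays. It was well above background on 2 and 1 arrays of the groups, and its change of -1.42 (SE 0.33) did not pass the threshold (adjusted p = 0.0774). With normexp the change of BMPR1B was smaller (-0.70). ACVR1, another type I receptor, read 1.20, 1.27 and 0.94 on the controls and -0.42, 0.80 and 0.45 on the LOX-PP arrays, with LOX-PP replicate 1 the lowest. Its change was -0.99 (SE 0.34, adjusted p = 0.211), and its second probe gave -1.06 (adjusted p = 0.310).

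The receptors for TGF-beta itself did not pass the threshold. TGFBR2, the type II receptor, read 2.83, 3.02 and 2.71 on the controls and 2.39, 3.27 and 3.27 on the LOX-PP arrays, where replicate 1 lay below and the other 2 above the control arrays (change of -0.01, SE 0.30). Its sign turned under quantile normalization (0.27). TGFBR1, the type I receptor, was above background on 3 arrays (0.68, SE 0.57), and the co-receptor TGFBR3 had a change of -0.73 (SE 0.35). The activin receptors ACVR1B, ACVR2A and ACVR2B had changes from -0.12 to -0.06. BMPR1A, with 5 probes, had a change of -0.31 (SE 0.29), and the probes ranged from -0.50 to -0.22. The median of the 10 receptors was -0.21, and 9 were under the all-probe median. This number was 8 under quantile normalization, and 7 without control replicate 2 or without LOX-PP replicate 2.

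None of the 8 SMAD genes changed at the adjusted threshold, and 3 had an unadjusted p under 0.05 in limma. In the methods' t-test 0 passed after adjustment and 4 without it. All 8 were above background on every array, and 7 lay below the median of all probes. SMAD5 was at 0.00 (SE 0.22, 95% interval from -0.52 to 0.52), and fell on the other side of 0 with normexp background correction (-0.05). The median of the SMAD genes was -0.68, and over all settings tried it ran from -0.86 without control replicate 3 to -0.42 under quantile normalization. SMAD2, a mediator of TGF-beta and activin signals, had the lowest value. It read -0.25, -0.39 and -0.76 on the controls and -1.76, -1.71 and -1.09 on the LOX-PP arrays, without overlap (change of -1.18, SE 0.27, adjusted p = 0.0796). SMAD3, its partner in the same arm, read 2.71, 2.51 and 2.24 on the controls and 1.83, 1.97 and 1.58 on the LOX-PP arrays (-0.82, SE 0.23, adjusted p = 0.148).

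In the BMP arm, SMAD1 read 2.00, 2.24 and 1.87 on the controls and 1.64, 1.19 and 1.38 on the LOX-PP arrays. Each of the latter lay below each of the former (-0.76, SE 0.23, adjusted p = 0.174). SMAD9 had a change of -0.41 (SE 0.25), with -0.92 at its second probe (adjusted p = 0.110). SMAD4, the partner shared by both arms, read 3.60, 3.87 and 3.38 on the controls and 3.26, 2.96 and 3.11 on the LOX-PP arrays. The groups did not overlap, and the change was -0.63 (SE 0.23, adjusted p = 0.259), with values between -0.63 and -0.42 over its 3 probes. The inhibitory SMAD6 (-0.73, SE 0.36) and SMAD7 (-0.47, SE 0.38), which are themselves switched on by BMP and TGF-beta signals, overlapped between groups.

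**Figure D3:**
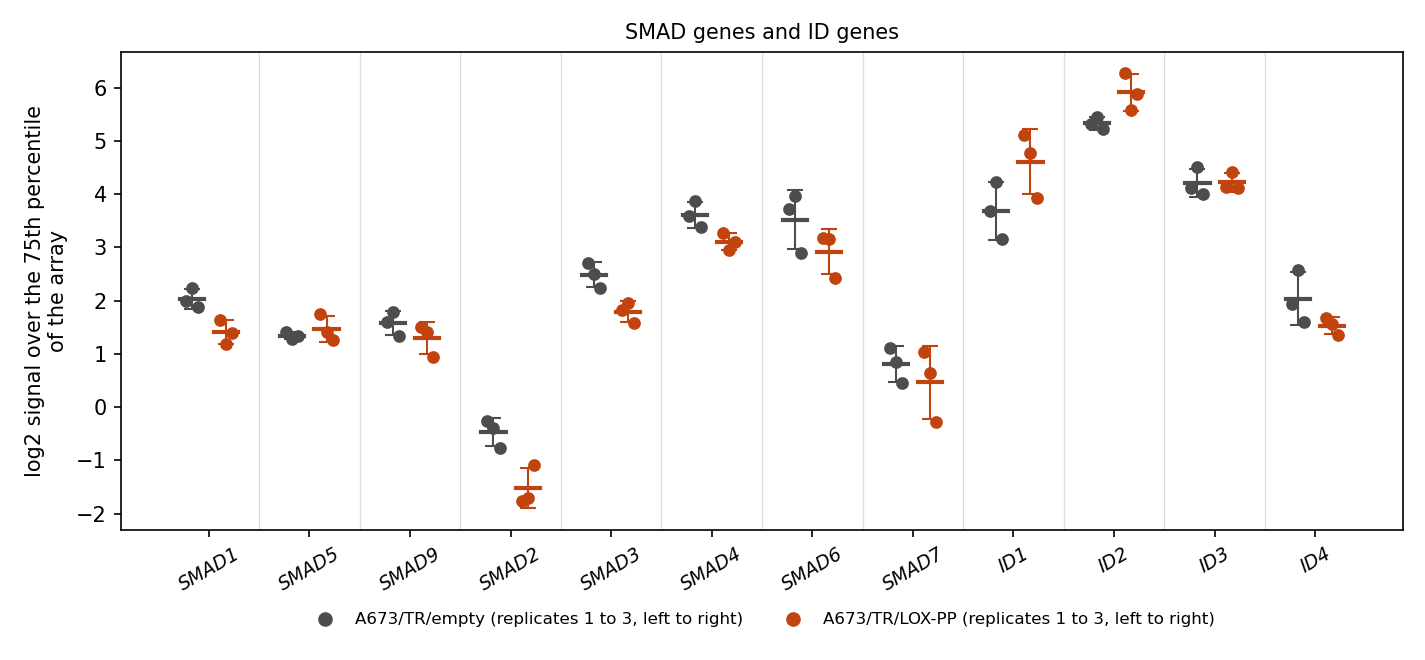
Log2 signal over the 75th percentile of the array (y axis) for the 8 SMAD and 4 ID genes, with points for arrays, lines for group means and bars of 1 SD (n = 3). SMAD1, SMAD2, SMAD3 and SMAD4 are lower on all LOX-PP arrays, ID2 is higher on all of them, and none of the 12 passed the threshold.

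Among the antagonists FSTL1, a secreted glycoprotein related to follistatin that can bind BMP4, changed. It read 4.92, 5.08 and 4.56 on the controls and 3.63, 3.76 and 3.85 on the LOX-PP arrays, so that the groups were separated by more than the spread within either. The gene was 2.36-fold lower (change of -1.24, SE 0.23, 95% interval from -1.78 to -0.70, adjusted p = 0.0399). Leaving out any 1 array took the adjusted p above 0.05, so that FSTL1 no longer passed. It was 0.208, 0.186 and 0.0542 without control replicate 1, 2 or 3, and 0.0570, 0.0957 and 0.0799 without LOX-PP replicate 1, 2 or 3. GREM1, the BMP antagonist gremlin, lay just outside the threshold (change of -2.20, SE 0.46, adjusted p = 0.05003). It read -3.88, -3.31 and -4.36 on the controls and -5.11, -5.95 and -6.70 on the LOX-PP arrays, and only 2 and 1 arrays of the groups were above background. With normexp the change of GREM1 was smaller (-1.01, adjusted p = 0.106 in limma). Its second probe was well above background on no array and was not tested. BAMBI, a pseudoreceptor, had a change of -0.54 (SE 0.24). NOG, which encodes noggin, was above background on 3 arrays (0.70, SE 0.74), and follistatin (FST) on none.

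Of the latent TGF-beta binding proteins, LTBP1 fell. It read -2.20, -1.73 and -2.93 on the controls and -4.22, -4.83 and -4.49 on the LOX-PP arrays, and the groups were more than 1 log2 unit apart. The gene was 5.11-fold lower (change of -2.35, SE 0.35, 95% interval from -3.19 to -1.52, adjusted p = 0.0176), with the probe above background on 3 control arrays and 1 LOX-PP array. The control arrays alone thus met the filter of 3 arrays, and the size of the fall and its adjusted p are uncertain. With normexp the change was smaller (-1.73). The adjusted p was 0.0985 and 0.0751 without control replicate 1 or 2, and 0.0589 and 0.0563 without LOX-PP replicate 2 or 3. Its second probe was above background on 2 control arrays and on none of the LOX-PP arrays, and was not tested. LTBP3 (-0.46, SE 0.26) and LTBP4 (-0.02, SE 0.24) overlapped between groups, and LTBP4 turned sign under quantile normalization (0.25). LTBP2 was well above background on no array.

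None of the 4 ubiquitin ligases and corepressors passed the threshold of limma or of the methods' t-test, and 1 had an unadjusted p under 0.05 in each. SKIL, a corepressor that is itself a target of TGF-beta, read -0.99, -0.76 and -0.93 on the controls and -0.07, -0.31 and -0.36 on the LOX-PP arrays. The groups were apart, with a change of 0.52 (SE 0.21, adjusted p = 0.131). SKI read 0.11, 0.15 and -0.05 on the controls and 0.92, 0.17 and 0.18 on the LOX-PP arrays, where replicate 1 stood above the rest (0.23, SE 0.27, adjusted p = 0.501). SMURF1 (0.11, SE 0.40; -0.07 under quantile normalization) and SMURF2 (-0.54, SE 0.46) overlapped.

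Of the 5 targets, 1 changed. TGFBI, a secreted matrix protein named for its induction by TGF-beta, fell more than any other gene of the list. It read 5.64, 5.79 and 5.39 on the controls and 2.93, 2.26 and 1.28 on the LOX-PP arrays. The control arrays lay close together, and the LOX-PP arrays, although spread over more than 1 log2 unit, were all far below them. The gene was 11.9-fold lower (change of -3.58, SE 0.42, 95% interval from -4.57 to -2.58, adjusted p = 0.00708). It alone among the 6 genes passed the threshold in all 6 fits that leave out 1 array. The summed fibroblast markers were also lower on the LOX-PP arrays, as given above. That sum is of linear signal, so markers with a high signal, such as COL1A2 and THY1, weigh most in it. COL1A2 fell (-3.04), THY1 did not (-0.04), COL1A1 had a change of 0.53, and the rest of the list is given above. The part of these markers in the value of TGFBI was not tested. The ID genes, which encode inhibitors of basic helix-loop-helix factors and are direct BMP targets, did not pass the threshold. ID1 read 3.68, 4.22 and 3.15 on the controls and 5.12, 4.77 and 3.94 on the LOX-PP arrays. LOX-PP replicate 3 fell within the control range (0.80, SE 0.40, 95% interval from -0.16 to 1.75, adjusted p = 0.246). ID2 read 5.31, 5.45 and 5.22 on the controls and 6.27, 5.58 and 5.89 on the LOX-PP arrays, without overlap (0.46, SE 0.25, adjusted p = 0.234), and its second probe gave 0.21. ID3 lay at -0.12 (SE 0.23, 95% interval from -0.67 to 0.44; 0.12 under quantile normalization) and ID4 at -0.64 (SE 0.30).

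**Figure D4:**
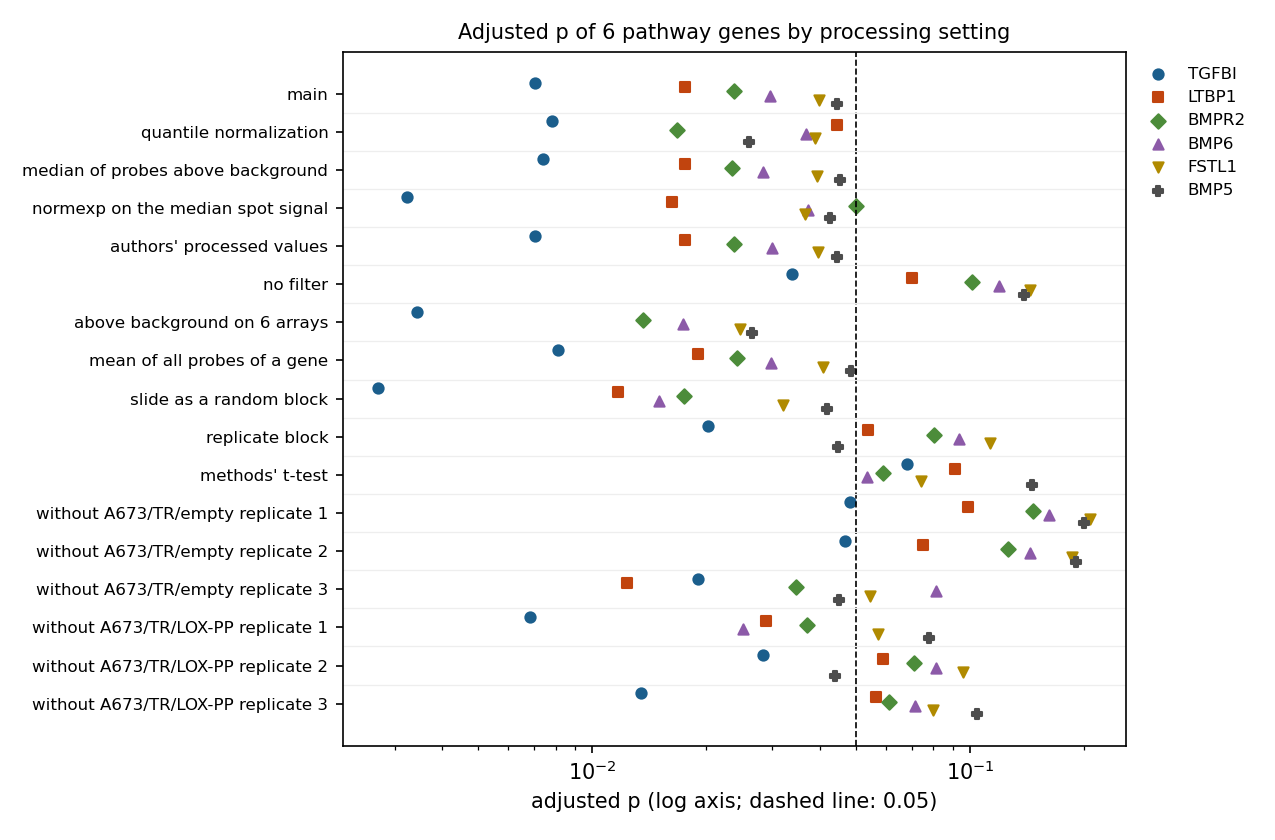
Adjusted p of the 6 genes that changed (x axis, log scale, dashed line at 0.05) under each processing setting (y axis), with main as the fit described in the text. TGFBI stays left of the line except in the methods' t-test (0.0680), while the other 5 cross it under several settings.

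Beyond the 47 genes, 92 other genes of the pathway were on the array, and 77 were tested. Of these 6 changed, 2 higher and 4 lower. Their share of 7.79% is near the 7.05% of all named genes. In this list 47 of the 77 lay below the median of all probes, with a median change of -0.17. GDF10, a BMP-related ligand, read -2.84, -2.99 and -2.78 on the controls and 1.01, 1.30 and 0.94 on the LOX-PP arrays. It was 14.1-fold higher (change of 3.82, SE 0.21, adjusted p = 0.000382), above background on all 6 arrays. ACVRL1, a type I receptor best known from endothelial cells, read -5.27, -5.11 and -4.30 on the controls and -2.67, -2.96 and -1.98 on the LOX-PP arrays (change of 2.23, SE 0.37, adjusted p = 0.0172), with 2 of the control arrays above background. The summed signal of 4 endothelial markers ranged from 0.295 to 0.342 times the 75th percentile on the controls and from 0.369 to 0.661 on the LOX-PP arrays, and its part in this value was not tested.

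RGMA, a BMP co-receptor, read -0.82, -1.16 and -1.16 on the controls and -2.83, -2.57 and -2.72 on the LOX-PP arrays (change of -1.79, SE 0.22, adjusted p = 0.00864). FBN1, which encodes the fibrillin of the microfibrils that hold latent TGF-beta complexes, read -2.53, -2.10 and -3.36 on the controls and -4.81, -6.02 and -5.35 on the LOX-PP arrays. Its change was -2.86 (SE 0.43, adjusted p = 0.0174), with 3 control arrays and 1 LOX-PP array above background. As for LTBP1, the control arrays alone met the filter, and the size of the fall is uncertain. CER1, a secreted antagonist of BMP and Nodal, had a change of -2.09 (SE 0.35, adjusted p = 0.0252), and WWP1, a ubiquitin ligase, one of -1.08 (SE 0.20, adjusted p = 0.0404). In both the groups were apart. None of the 14 other targets tested passed the threshold, and 3 had an unadjusted p under 0.05 in limma. The methods' t-test also gave 3 without and 0 after adjustment, but not the same 3 genes. The 3 in limma were CCN2, JUNB and COL1A1. CCN2, a matrix-associated target of TGF-beta, had a change of -1.33 (SE 0.36, adjusted p = 0.115). JUNB, a transcription factor of the AP-1 family, had one of 0.79 (SE 0.34, adjusted p = 0.178). For COL1A1, a collagen chain, it was 0.53 (SE 0.24, adjusted p = 0.175). These genes were named after their values were seen.

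**Figure D5:**
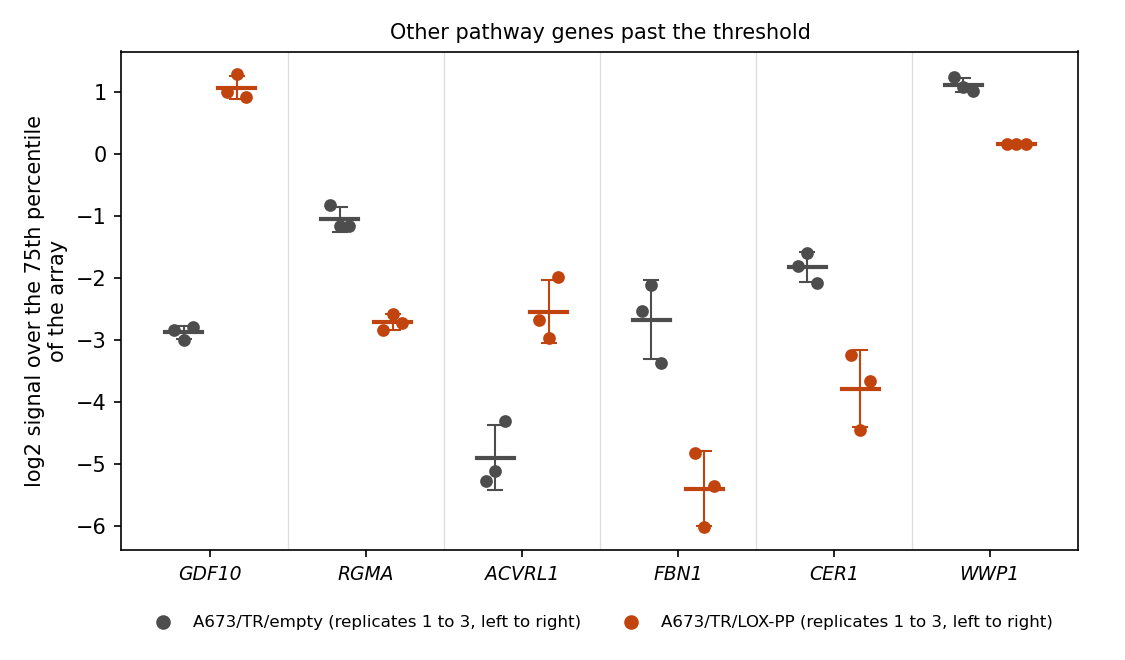
Log2 signal over the 75th percentile of the array (y axis) for the 6 other pathway genes past the threshold, with points for arrays, lines for group means and bars of 1 SD (n = 3). GDF10 and ACVRL1 are higher and RGMA, FBN1, CER1 and WWP1 lower on all LOX-PP arrays.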

How the data were processed

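Total RNA from 3 A673/TR/empty and 3 A673/TR/LOX-PP samples was hybridised to Agilent 1-colour arrays, and each array was read with Agilent Feature Extraction 10.7 according to the submitters' processing notes. Spot intensity, which that software had corrected for background, was deposited by the authors together with processed log2 values. These deposited log2 values match the log2 intensity less the 75th percentile of its array, with every probe centred on its median, within 0.02 for all 50599 probes; their array medians run from -0.34 to 0.41. The methods in the sources used here do not name the normalization. The array design is of another build than the RefSeq table (GRCh38.p14) that named 28174 probes as 20503 genes, so coordinates are given for promoter windows alone.

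From the intensity, control spots and outlier spots (213 to 353 per array) were left out, except 71 spots of probes with no other spot. The log2 values were averaged per probe, and the 75th percentile over gene probes was subtracted. The 32647 probes that were well above background on 3 or more of 6 arrays were tested with limma 3.58.1 in R 4.3.3 without a block, and p-values were adjusted by Benjamini-Hochberg over all of them (1844 under 0.05, 1077 higher and 767 lower). The test is of the difference itself, while changes and intervals are given less its median. Each gene is represented by its brightest probe. The samples are described as separate experiments, and the precision is limited by the number of arrays. The steps were checked on simulated data with the means and spread of these arrays. Of 200 probes given a log2 change of 2, 75 passed the threshold, with 0 wrong calls. Of 200 given a change of 3, 158 passed, with 12 wrong calls. With no change given, 0 passed. A gene that did not pass may thus still have changed.

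The 47 genes, the lists of other pathway genes and of markers, and the tests were chosen with earlier results of these data known. Full values are given for genes past the threshold, for those whose groups do not overlap and for the largest change of each role, and the other pathway genes past the threshold are named. NBL1 and TDGF1 of that list were not matched to a probe. Alternatives were quantile normalization, scaling to the median of probes above background, normexp (offset 50) on the median spot signal, the authors' values, 2 other filters, averaging the probes of a gene, a replicate block, the slide as a random block, the methods' t-test, and leaving out each array.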

Additional observations from a re-analysis of the deposited data

How the results depend on the processing

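The number of pathway genes past the threshold stayed at 6 (1 higher, 5 lower) with quantile normalization, the median of probes above background, normexp, the authors' values and averaging over the probes of a gene, and was 5 among probes above background on all 6 arrays (1 higher, 4 lower). It was 1 without a filter on dim probes (0 higher, 1 lower), where TGFBI remained, and 0 in the methods' t-test after adjustment (0 higher, 0 lower), where 16 genes had an unadjusted p under 0.05, the same number as in limma. With the slide as a random block it was 9 (8 lower), with TGFB2, BMPR1B and GREM1 added. Whether the replicate numbers pair the arrays is not stated. The deviations of same-numbered arrays correlated at 0.26, -0.38 and 0.22, and not every array correlated best with its own number. With so few arrays per group, these correlations cannot settle it. A replicate block left 3 of the genes past the threshold (0 higher, 3 lower; 850 probes in all): TGFBI, BMP5 and TGFB2. Leaving out 1 array at a time gave 1 to 6 genes (0 to 1 higher, 1 to 5 lower). Without LOX-PP replicate 1, that is within slide 1, there were 6, of which BMPR1B and GREM1 stood in place of BMP5 and FSTL1; without LOX-PP replicate 3 or control replicate 1 or 2, TGFBI alone was past the threshold. The number of other pathway genes past it was 6, and became 2 without a filter, 3 with a replicate block, 3 in the methods' t-test, 4 among probes above background on 6 arrays and 1 to 8 when 1 array was left out. The median change of -0.43 ran from -0.57 to -0.24 when 1 array was left out. Over the other settings it ran from -0.61 without a filter, for the same 42 genes, to -0.28 with quantile normalization. Without a filter it was -0.58 when all 47 genes were taken.

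The changes of some genes turned sign under some settings, and none of these genes passed the threshold under any. Most lay close to 0, but NOG (0.70) and SMURF2 (-0.54) did not. With quantile normalization these were GDF11 (0.22), TGFBR2 (0.27), LTBP4 (0.25), SMURF1 (-0.070) and ID3 (0.12). Among probes above background on 6 arrays they were TGFBR2 (0.048), ACVR1B (0.0004) and LTBP4 (0.034), and after averaging over the probes of a gene SMAD5 (-0.0054) and LTBP4 (0.074). Without a filter they were SMAD5 (-0.18) and SMURF1 (-0.064), with normexp SMAD5 (-0.054), and with the slide as a random block TGFBR2 (0.12), SMAD5 (-0.10) and SMURF1 (-0.10). When 1 array was left out, the range was -0.29 to 0.11 for ACVR1B, -0.22 to 0.049 for ACVR2B, -0.28 to 0.10 for ID3, -0.16 to 0.14 for LTBP4, -0.11 to 1.16 for NOG, -0.058 to 0.43 for SKI, -0.17 to 0.11 for SMAD5, -0.28 to 0.51 for SMURF1, -0.98 to 0.047 for SMURF2 and -0.15 to 0.25 for TGFBR2. The cause was not tested, beyond the fewer arrays or the larger number of tests in some settings. Signal over background limits TGFB2, BMPR1B, GREM1, LTBP1, TGFBR1, NOG and SMURF2, which were above it on 3 or 4 arrays.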
